A study of Mus musculus with 72 samples.

Results

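The Klf4 region is a stretch of DNA inside the gene Klf4 that was amplified as an unmethylated control beside imprinted regions, in a study of imprinted methylation in the aged mouse brain. Its members are the CpGs that the deposited table lists under the name Klf4, which are 15 of the 224 CpGs in the table. All 15 lie on chromosome 4 (build GRCm38) between 55530381 and 55530595, a span of 215 bases with gaps of 4 to 29 bases between neighbours. Klf4 (gene ID 16600) is on the minus strand from 55527137 to 55532475, so the CpGs lie inside the gene, 1880 to 2094 bases downstream of its start site at 55532475. Whether they fall in an exon or an intron was not determined here.

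Klf4 encodes a zinc finger transcription factor of the Krüppel-like family, known as 1 of the factors that reprogram differentiated cells to pluripotency and for roles in epithelial and neuronal differentiation. It is not imprinted, and CpG-rich DNA around the starts of many such genes is largely free of methylation on both parental copies in most tissues. A region of this kind shows how low a methylation level the assay can read, and whether a difference between alleles can arise where no imprint is known.

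Methylation was read by IMPLICON, in which bisulfite-converted DNA is amplified region by region, and sequenced, and variants between the strains tell which parental genome a read came from. Bisulfite turns unmethylated cytosine into a base read as T, so the methylation level of a CpG is the percent of calls that still read as C. The DNA came from 8 female F1 mice, from 5 brain areas (nucleus accumbens, prefrontal cortex, hypothalamus, hippocampus and cerebellum) and from lung as a control organ. Of the old mice, mice 1 and 2 were 101 weeks of age, from a BL6 mother and a CAST father, and mice 3 and 4 were 103 weeks, from the reciprocal cross with a CAST mother. Of the young mice, mice 5 and 6 were 8 weeks, from a CAST mother and a BL6 father, and mice 7 and 8 were 9 weeks, from a BL6 mother. Every mouse was thus a hybrid of the BL6 and CAST strains with no other genetic change named, brain areas were taken as dissected tissue of mixed cell types, and within an age group the cross went with a small difference in age.

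The table calls the parental genomes 1 and 2, and genome 1 was taken as BL6. In mice with a BL6 mother the maternally methylated imprinted regions averaged 85.3% on genome 1 and 8.59% on genome 2. In mice with a CAST mother they averaged 8.61% on genome 1 and 86.1% on genome 2.

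The 48 libraries, 1 per mouse and tissue, held 60 to 58497 calls at the Klf4 CpGs, with a median of 6931.5. A CpG entered on an allele with at least 50 calls, and the Klf4 level of an allele in a library is the mean percent over its CpGs. Of 96 library-alleles 89 had a level, each over all 15 CpGs. Both alleles had one in 42 libraries, and genome 1 alone in 5. The hippocampus library of old mouse 3, with 60 Klf4 calls, gave no level. Young mouse 8 was read least, at a median of 2267 Klf4 calls per library. In the prefrontal cortex library of young mouse 5, 99.5% of the 50631 Klf4 calls were on genome 1, and 1 CpG there stood far above the others.

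The Klf4 region carried very little methylation in every library. The level of a library-allele ran from 0.257 to 4.53%, with a median of 1.47%. It was under 1% in 24 library-alleles, from 1 to 3% in 58 and over 3% in 7. Over all libraries 8745 of 481359 calls, 1.82%, were methylated, and 2269 of these came from 1 CpG in the prefrontal cortex library of mouse 5. Of 1335 single CpG values 274 (20.5%) were exactly 0, 47 exceeded 5% and 2 exceeded 10%. In 22 library-alleles each CpG had at least 1 methylated call, and in 6 at least 10 of the 15 CpGs were at 0. The lowest level was in the cerebellum of old mouse 3, on genome 1, with 91 methylated of 35455 calls, 0.257% of them (95% Wilson interval 0.209 to 0.315%).

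Both CpG values above 10% were in prefrontal cortex, on genome 1 of mice whose father was BL6. In the library of young mouse 5 the CpG at 55530521 was methylated in 2269 of 3364 calls, 67.4% (95% Wilson interval 65.8 to 69.0%). The other 14 CpGs on the same allele of that library had 0 to 0.120%. The same CpG had a median of 1.47% and at most 5.67% on genome 1 in the other libraries. The Klf4 level of 4.53% in that library, the highest of all, thus rested on 1 CpG. In the library of old mouse 3 the CpG at 55530585 was methylated in 110 of 973 calls, 11.3% (interval 9.47 to 13.4%). Whether PCR copies were removed is not given in the sources used here, so these calls may include them. The intervals cover counting error only.

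The single CpGs differed little in level, and how alike their order was on both genomes depended on 1 library. By the mean over the 89 library-alleles the 3 highest were 55530477 with 2.54% ± 1.90 (SD), 55530585 with 2.37% ± 2.16 and 55530555 with 2.22% ± 1.56. The 3 lowest were 55530542 with 0.861% ± 1.09, 55530595 with 0.920% ± 1.11 and 55530420 with 1.14% ± 1.25. The spread over libraries was thus about as large as each mean. Across the 15 CpGs the means on genome 1 (without the prefrontal cortex library of mouse 5) and genome 2 had a Pearson r of 0.83 and a Spearman rho of 0.83. With that library included r was 0.50 and rho 0.55. Those of old and young mice, without the same library, had an r of 0.92, and those of brain and lung an r of 0.63. These are descriptions over CpGs that are read on the same molecules.

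**Figure D1:**
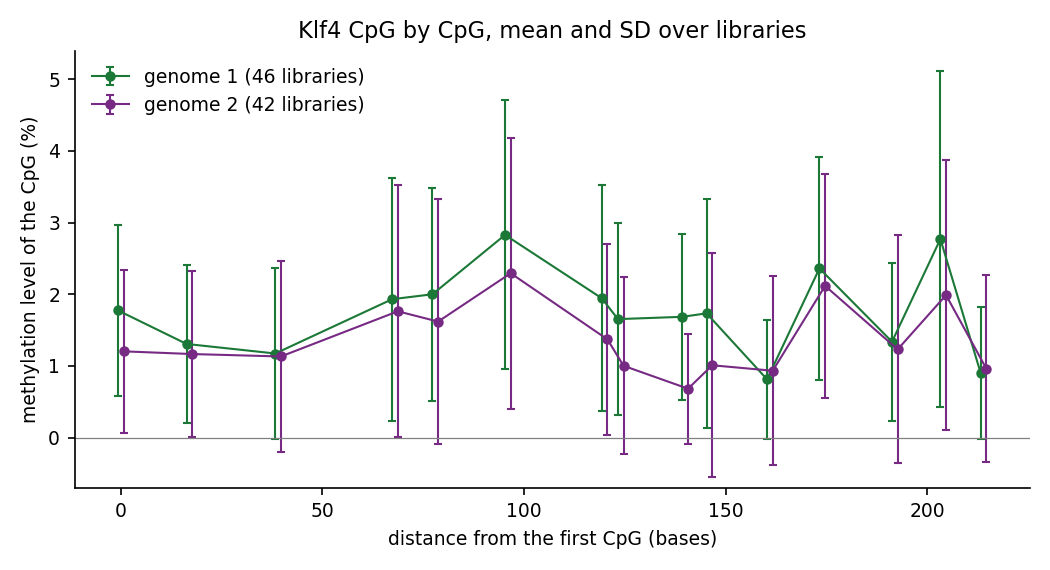
Methylation level of each of the 15 Klf4 CpGs (percent, y axis) against its distance in bases from the first CpG (x axis), as mean and SD over 46 libraries for genome 1, without the prefrontal cortex library of mouse 5, and 42 libraries for genome 2. Without that library the CpGs rise and dip in much the same places on both genomes, with the highest mean at the sixth CpG (2.83% on genome 1 and 2.29% on genome 2), and 13 of 15 means are higher on genome 1.

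The mean of the first and last CpGs was lower than that of the inner ones, mainly through the last. The first CpG, 55530381, had 1.49% ± 1.20 and the last, 55530595, had 0.920% ± 1.11 (SD, 89 library-alleles). Averaged per mouse, the 2 end CpGs had 1.17% and the 13 inner CpGs 1.64%, a difference of -0.47 percentage points ± 0.290 (SD, n = 8 mice). It was widest in mouse 5, with 0.446% at the ends and 1.49% at the inner CpGs. That inner mean holds the CpG with 67.4% in its prefrontal cortex library. With a mouse left out the mean difference ran from -0.530 to -0.387 points. The ends were lower in 8 of 8 mice (exact two-sided sign-flip p = 0.00781, the smallest that 8 mice allow). The last CpG lay under the inner mean in 8 of 8 mice and the first in 6 of 8, and by its mean over library-alleles the first ranked 8 of 15 from the highest, above several inner CpGs.

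Among tissues the Klf4 level, taken as the mean of both alleles, was highest in nucleus accumbens, prefrontal cortex and hypothalamus. Nucleus accumbens had 2.20% ± 0.599 (SD, n = 7 mice), prefrontal cortex 2.03% ± 0.429 (n = 6) and hypothalamus 1.78% ± 0.480 (n = 8). Hippocampus had 1.27% ± 0.881 (n = 6), cerebellum 1.18% ± 0.428 (n = 8) and lung 1.13% ± 0.363 (n = 7). No neighbours in this order differed beyond the spread between mice, with exact sign-flip p of 0.250 to 0.859 before and 0.859 after Benjamini-Hochberg adjustment over the 5 pairs. The median Klf4 calls per library were 4727 in nucleus accumbens, 12932.5 in prefrontal cortex, 8198 in hypothalamus, 5092 in hippocampus, 13619 in cerebellum and 5854 in lung, and the part of depth in the tissue order was not tested. No measure of bisulfite conversion was used, so the part of incomplete conversion in levels this low was not tested either, here or against lung.

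Set against lung of the same mouse, the Klf4 level was the higher one in most mice in 4 of 5 brain areas, and the 3 widest differences just missed the threshold after adjustment. In nucleus accumbens the difference was 1.07 percentage points ± 0.742 (SD), higher in 6 of 7 mice. In prefrontal cortex it was 0.81 ± 0.389, higher in 6 of 6 mice, and in hypothalamus 0.69 ± 0.586, higher in 6 of 7 mice. Each had an exact sign-flip p of 0.0313, which adjustment over 5 brain areas took to 0.0521. In prefrontal cortex 0.0313 is the smallest p that 6 mice allow. In hippocampus the difference was 0.15 ± 1.03, higher in 2 of 5 mice, and in cerebellum 0.05 ± 0.626, higher in 5 of 7 mice (exact sign-flip p of 0.938 and 0.859). The 5 mice in hippocampus cannot go below 0.0625, so the test could not have passed there. With CpGs of at least 20 calls on an allele, 3 areas passed the same exact sign-flip test, with 1.03 points in nucleus accumbens, 0.98 in prefrontal cortex and 0.78 in hypothalamus (adjusted p = 0.0260 each).

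**Figure D2:**
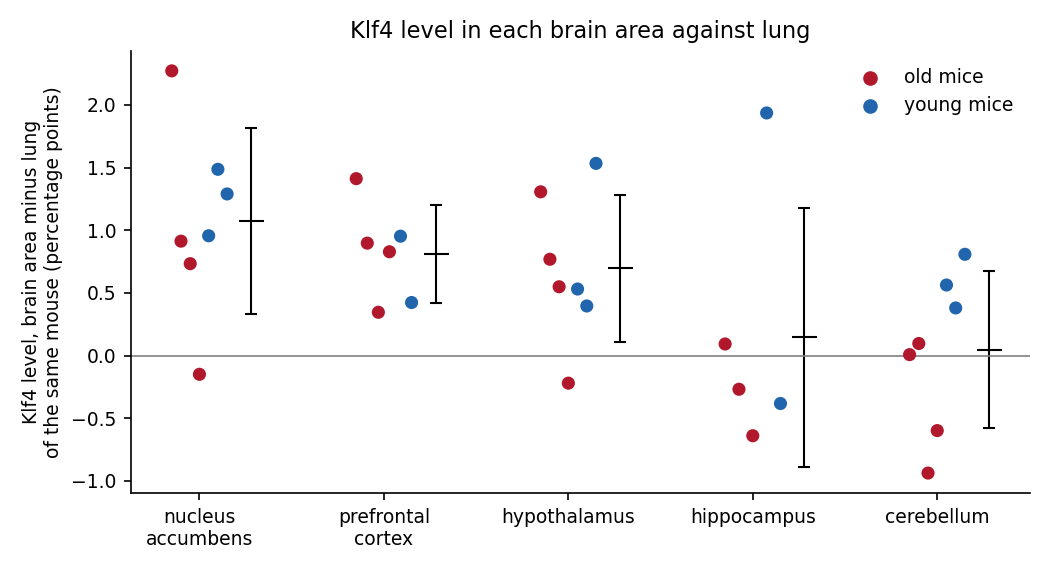
Klf4 level in a brain area minus that in lung of the same mouse (percentage points, y axis) for 5 brain areas (x axis), each point 1 mouse, with mean and SD in black beside the points. All 6 mice lie above 0 in prefrontal cortex, 6 of 7 in nucleus accumbens and hypothalamus, and the points straddle 0 in hippocampus and cerebellum.

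The limma fit on percent, over all region-alleles of the table and without pairing by mouse, passed 0 of the 10 Klf4 tests of a brain area against lung, where 15.7% of all tests passed. An unadjusted p under 0.05 came in 2 of the 10, beside 24.7% of all tests. Maternal Klf4 was 2.16% ± 1.06 in nucleus accumbens and 0.974% ± 0.515 in lung (n = 8 and 8). The fitted difference of 1.19 points had a 95% interval of 0.115 to 2.26 and a limma adjusted p of 0.0975. Paternal Klf4 was 2.52% ± 1.30 in prefrontal cortex and 1.18% ± 0.569 in lung (n = 7 and 7), with the library of mouse 5 included. That difference was fitted as 1.34 points, with an interval of 0.225 to 2.45 and a limma adjusted p of 0.148. The scale of the fit changed the call. On the log odds of the summed calls 4 of 10 Klf4 tests passed, beside 18.0% of all tests, namely both alleles in nucleus accumbens (adjusted p from limma 0.00650 and 0.00687) and in hypothalamus (0.0341 each). With a trend in limma's moderation both nucleus accumbens alleles passed (adjusted p from limma 0.0281 and 0.0330), again beside 18.0% of all tests.

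At 13 of the 15 CpGs the mean over brain libraries was above that over lung libraries, with differences from -0.12 to 1.33 points. The widest was at 55530449, with 2.05% in brain and 0.723% in lung. These means are not paired by mouse and include the prefrontal cortex library of mouse 5. The brain mean at 55530521 was 2.15% with that library and 1.25% without it. The CpGs share their reads, so the count of 13 is a description. Sox2ot, the other unmethylated control, was higher than lung in hypothalamus by 3.81 points ± 1.80 and in nucleus accumbens by 3.30 ± 2.00 (7 of 7 mice in each), and was -0.19 ± 1.37 points from lung in prefrontal cortex (higher in 3 of 7 mice). Prefrontal cortex was thus high at Klf4 beside lung and not at Sox2ot, a contrast that was not tested.

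No difference in Klf4 level between old and young mice passed a test in any tissue, but the exact test had little room to pass. In hippocampus and prefrontal cortex the numbers of mice could not have let it pass even before adjustment. In the other tissues it could have passed after adjustment only with several tissues at their smallest p together. In hippocampus the old mice had 1.07, 0.920 and 1.11% (mice 1, 2 and 4) and the young mice 3.03, 0.653 and 0.823% (mice 6, 7 and 8). The young group held both the lowest and the highest value there. In cerebellum old mice had 0.984, 1.28, 0.347 and 1.15% (mice 1 to 4) and young mice 1.11, 1.48, 1.84 and 1.26% (mice 5 to 8), so that the groups overlapped. In prefrontal cortex old mice had 2.39, 2.09, 1.63 and 2.58% and young mice 2.05 and 1.46% (mice 6 and 7).

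In hypothalamus old mice had 2.28, 1.96, 1.83 and 1.53% and young mice 1.07, 1.49, 2.57 and 1.53%. In nucleus accumbens old mice had 3.25, 2.10, 2.02 and 1.60% and young mice 1.50, 2.59 and 2.33% (mice 5 to 7). In lung old mice had 0.978, 1.19, 1.29 and 1.75% and young mice 0.544, 1.10 and 1.04% (mice 5 to 7). The groups overlapped in all 6 tissues. The mean was higher in old mice in prefrontal cortex (by 0.42 points), lung (0.41), hypothalamus (0.23) and nucleus accumbens (0.11), and lower in cerebellum (-0.48) and hippocampus (-0.47).

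By exact two-sided permutation, p ran from 0.143 in cerebellum and lung to 1 in hippocampus, and from 0.429 to 1 after adjustment over the 6 tissues. Before adjustment, 4 against 4 or 4 against 3 mice cannot go below 0.0286, 3 against 3 below 0.100 and 4 against 2 below 0.0667. A single tissue at 0.0286 would not pass after adjustment over the 6 tissues. Averaged over tissues after centring each tissue on its mean, old mice lay 0.08 points above young mice (exact permutation p = 0.771).

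**Figure D3:**
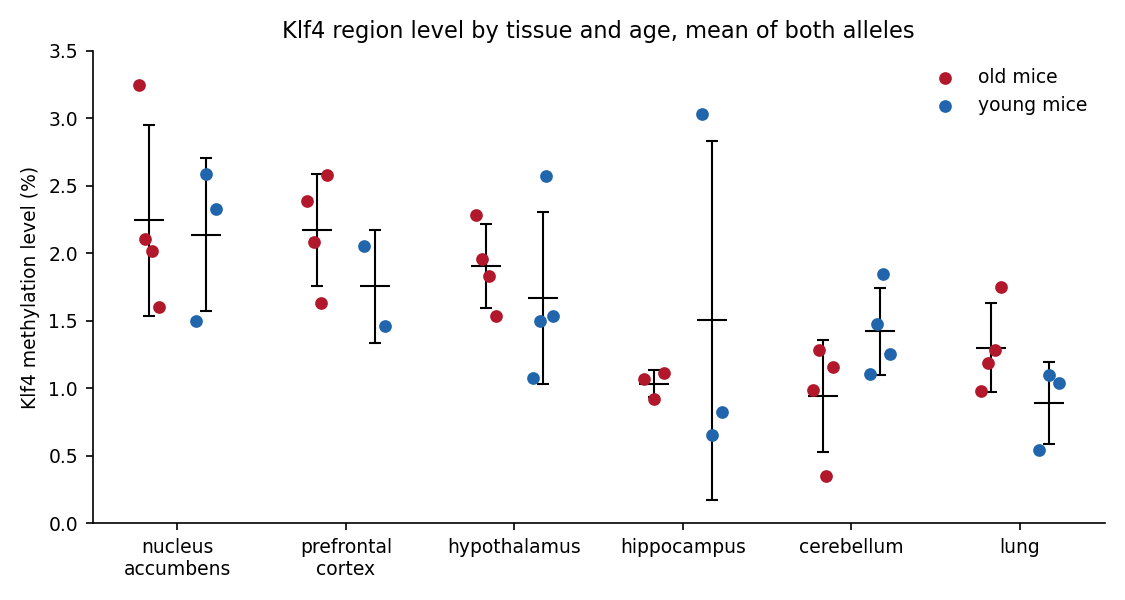
Klf4 methylation level, the mean of both alleles in percent (y axis), in 6 tissues (x axis) of old mice (red, left) and young mice (blue, right), each point 1 mouse, with mean and SD in black. Old and young points overlap in all tissues, and the young hippocampus of mouse 6 (3.03%) and the old nucleus accumbens of mouse 1 (3.25%) stand highest.

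On single alleles limma passed 0 of 12 Klf4 tests for age (adjusted p of 0.643 to 0.994), where 0.0% of all 97 tests passed, and 0 of the 12 had an unadjusted p under 0.05, beside 5.15% of all tests. The widest difference was on the paternal allele in lung, with 1.46% ± 0.599 in 4 old mice and 0.806% ± 0.261 in 3 young mice. limma gave this as 0.77 points (95% interval -0.57 to 2.11, adjusted p = 0.643). edgeR on the methylated and unmethylated calls passed 0 of 12 and had 1 with an unadjusted p under 0.05, the same lung allele (adjusted p = 0.154), while 1.03% of all edgeR tests passed. In prefrontal cortex paternal Klf4 was lower in old mice by 0.41 points, and higher by 0.04 points without the library of mouse 5. Of the 180 tests of a single Klf4 CpG on 1 allele in 1 tissue, limma passed 0. Unadjusted p was under 0.05 in 0 of the 180. Of all 1223 such tests 0.0% passed and 5.48% had an unadjusted p under 0.05. Over libraries the SD was 0.834 points at maternal and 0.997 at paternal Klf4, the lowest among region-alleles with a level. limma's moderation draws on the spread of all regions in a fit. The Klf4 p of the limma fits on percent may thus be too high, which was not tested. Its counts of 0 do not alone show that age differences are absent. The age difference was positive, higher in old mice, at 99 of the 180 CpG-alleles. By tissue the count was highest in lung, with 26 of 30, and lowest in cerebellum, with 6 of 30. Elsewhere it ran from 12 to 19 of 30. The CpGs of 1 amplicon share their reads, so these counts are a description.

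The age difference in a brain area was also set against that in lung of the same mice. limma passed 0 of 10 such Klf4 tests, with 0 at an unadjusted p under 0.05 and 3.75% of all tests passing. The cross, CAST mother against BL6 mother, passed 0 of 12 Klf4 tests, with 0 at an unadjusted p under 0.05. Of all tests of the cross 0.0% passed and 4.12% had an unadjusted p under 0.05.

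The parental copies did not differ at Klf4 beyond the spread between mice. Averaged over tissues the maternal level was 1.51% and the paternal level 1.57%, a difference of -0.06 points ± 0.617 (SD, n = 8), with the maternal level higher in 4 of 8 mice (exact sign-flip p = 0.813). By tissue the difference ran from -0.37 points in hypothalamus to 0.28 points in nucleus accumbens (exact sign-flip adjusted p of 0.881 to 1).

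Sorted by strain, genome 1 was slightly more methylated than genome 2. Averaged over tissues it was 1.77% on genome 1 and 1.32% on genome 2, a difference of 0.45 points ± 0.392 (SD, n = 8). Genome 1 was higher in 6 of 8 mice and in 32 of 42 libraries (exact sign-flip p = 0.0313). The difference was 0.861, 0.561, 0.942 and 0.695 points in old mice 1 to 4, and 0.412, -0.0285, -0.126 and 0.279 points in young mice 5 to 8. The exceptions, mice 6 and 7, were both young and of different crosses. These values rest on unlike sets of tissues, with 4 tissues in mouse 5 and 3 in mouse 8, neither of which had prefrontal cortex, the tissue with the widest mean difference. Without prefrontal cortex in any mouse the difference was 0.27 points ± 0.329, with 1.62% on genome 1 and 1.35% on genome 2, higher in 6 of 8 mice (exact sign-flip p = 0.0703, chosen after seeing the data). With mouse 1, 2, 3, 4, 5 or 8 left out, the exact sign-flip p was 0.0625, and with a minimum of 200 calls the difference was 0.22 points with exact sign-flip p = 0.484. The value at 200 calls rests on fewer mice and tissues. Genome 2 calls fell short in all tissues of mouse 8, and in prefrontal cortex of mice 1, 6 and 7.

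Prefrontal cortex had the widest mean difference between genomes. Genome 1 had 3.94, 2.58, 2.76 and 3.60% in old mice 1 to 4 and 2.81 and 1.42% in young mice 6 and 7. Genome 2 had 0.834, 1.59, 0.505 and 1.56% in old mice and 1.30 and 1.50% in young mice of the same numbers. Only mouse 7 had genome 1 below genome 2, and the mean difference was 1.64 points ± 1.10 (exact sign-flip p = 0.0625, adjusted 0.125). Lung had 0.50 points ± 0.529, higher in 7 of 7 mice, and hippocampus 0.78 ± 0.496, higher in 6 of 6 (exact sign-flip p of 0.0156 and 0.0313, adjusted 0.0938 each). Before adjustment these are the smallest p that 7 and 6 mice allow. In lung of mouse 6 the genomes were nearly level, 0.00114 points apart. Cerebellum had 0.33 ± 0.839, hypothalamus -0.18 ± 0.965 and nucleus accumbens -0.02 ± 1.01, higher in 5 of 8, 5 of 8 and 4 of 7 mice.

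The strain difference in a brain area did not differ from that in lung after adjustment (exact sign-flip adjusted p of 0.260 to 0.891). Chosen after its value was seen, the difference in prefrontal cortex was 1.39 points ± 0.958 above the mean of the same mouse's other tissues, in 6 of 6 mice (exact sign-flip p = 0.0313, the smallest that 6 mice allow). CpG by CpG, 13 of 15 means were higher on genome 1, with the widest gap at 55530521 (1.69% on genome 1 without the prefrontal cortex library of mouse 5, and 0.683% on genome 2). The CpGs share their reads, so this count is a description.

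**Figure D4:**
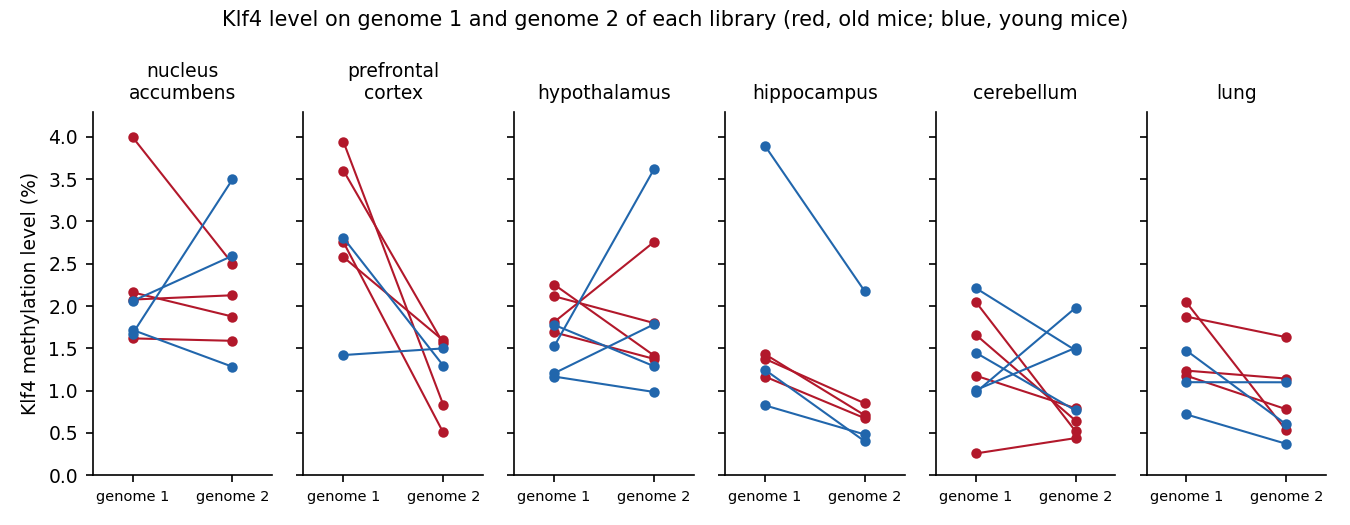
Klf4 methylation level in percent (y axis) on genome 1 (left) and genome 2 (right) of each library with both, joined by a line, in 6 tissues (panels), old mice in red and young mice in blue. In prefrontal cortex 5 of 6 lines, and in hippocampus and lung all lines slope down towards genome 2, while in nucleus accumbens and hypothalamus they run both ways. The lung line of mouse 6 is nearly level.

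The calls themselves fell unevenly on the genomes. Over the 47 libraries with at least 500 Klf4 calls, genome 1 held 67.8% of the Klf4 calls ± 5.89 (SD), and more than 50% in 47 of 47. Without the prefrontal cortex library of mouse 5, where the share was 99.5%, it ran from 56.2 to 72.9%. It was 68.1% ± 7.70 in mice with a CAST mother (23 libraries) and 67.6% ± 3.55 in mice with a BL6 mother (24 libraries), so it followed the strain and not the parent. Per mouse the log2 ratio of genome 1 to genome 2 calls averaged 1.17 ± 0.404 (SD) and was above 0 in 8 of 8 mice (exact sign-flip p = 0.00781, the smallest that 8 mice allow). Tissue means ran from 63.7% in cerebellum to 71.2% in prefrontal cortex, and without the library of mouse 5 prefrontal cortex averaged 67.2%, below lung with 68.9% and nucleus accumbens with 68.1%. The genome with more Klf4 calls was thus also the one with the higher level, and the part of the uneven calls in the strain difference was not tested.

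Other regions were split more evenly on average, but some varied more between libraries. Their mean share of calls on genome 1 ran from 47.6% at Prickle1 to 57.4% at Snrpn. Without the prefrontal cortex library of mouse 5, single libraries ran from 28.3 to 84.4% at Snrpn, from 30.2 to 83.5% at Dlk1-Dio3 and from 31.8 to 68.4% at Commd1, wider than at Klf4. At Sox2ot they ran from 44.7 to 58.6%. In the prefrontal cortex library of mouse 5 other regions were uneven as well, with 3.01% of calls on genome 1 at Commd1, 92.1% at Mest and 94.1% at Snrpn, against 42.3% at Sox2ot and 52.8% at Gnas.

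**Figure D5:**
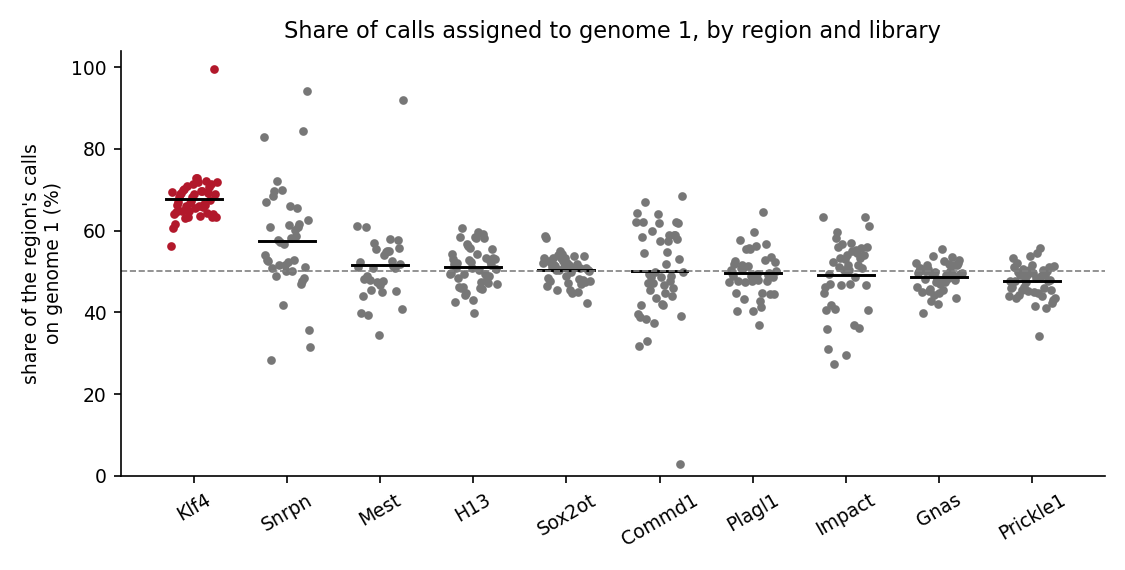
Share of a region's calls on genome 1 (percent, y axis) in each library with at least 500 calls at the region (points), by region (x axis), with the mean as a black bar and an even share of 50% as a dashed line. Klf4, in red, lies above 50% in 47 of 47 libraries with a mean of 67.8%, and means of the other regions shown lie between 47.6 and 57.4%.

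Klf4 was the least methylated of the regions it was set against. Per mouse it averaged 1.57% against 3.70% at Sox2ot, the gene of a long noncoding RNA around the pluripotency gene Sox2, a difference of -2.13 points ± 0.498 (SD, n = 8). It averaged 1.54% against 8.95% on the paternal, normally unmethylated alleles of the 7 imprinted regions, a difference of -7.41 points ± 2.94. It averaged 1.58% against 91.6% at Prickle1, a planar cell polarity gene used as the methylated control, a difference of -90.0 points ± 1.76. Klf4 was lower in 8 of 8 mice in each comparison (exact sign-flip p = 0.00781, adjusted over the 3 to 0.00781). With a minimum of 200 calls the difference from Sox2ot was -0.61 points (exact sign-flip adjusted p = 0.188).

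By the mean absolute difference from the Klf4 level of the same library, the most like region-alleles were paternal Plagl1, at 1.62 points over 38 shared libraries, and paternal Sox2ot, at 2.18 points over 39. Paternal Plagl1, the unmethylated copy of an imprinted zinc finger gene, averaged 4.55% ± 9.55 over 40 libraries and reached 62.8% in its highest. Paternal Sox2ot averaged 3.57% ± 2.30 over 42 libraries and ran from 0.951 to 8.97%. Neither kept as narrow a range as Klf4, whose highest library-allele was 4.53%.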

How the data were processed

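Per the labels, tissue DNA was bisulfite-converted, each primer pair was amplified apart, the products were pooled, and barcodes were added in another PCR. Whether PCR copies were removed is not stated in the sources used here, so calls may include them. The authors' deposited table holds, for each CpG and genome, a percent of methylated calls with no further normalization, and in other deposited columns the count of calls that the percent rests on. The submitters' processing notes name Bismark 0.14.4, Trim Galore 0.6.6, bcl2fastq 2.20 and build GRCm38. How reads were split by genome and filtered is not given in the sources used here, and no measure of bisulfite conversion was used. Percent times calls was a whole number of methylated calls to within 0.000266. Columns match the 48 samples of lane 7651, and the 24 of lane 7950 were not used here.

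Klf4 calls per library ran from 60 to 58497. CpGs with at least 50 calls on an allele entered. Per tissue, limma 3.58.1 (R 4.3.3) was fitted on percent over all region-alleles with at least 2 old and 2 young mice, with the cross as covariate, or with age and cross as covariates and at least 3 mice per tissue between tissues. P-values were two-sided and adjusted by Benjamini-Hochberg over all region-alleles of a fit, with a threshold of 0.05. Single levels were compared by exact permutation between mice or exact sign-flip within mice (scipy 1.17.1). edgeR 4.0.16 on calls, other coverage minimums (20, 100 and 200), the log odds, a trend, summed calls, no cross covariate, the mouse as a replicate block and each mouse left out were alternatives. The fits were tested on simulated data, with planted shifts wider than the highest Klf4 level of any library-allele. Whether they would find differences as small as those in the Klf4 level was not tested. The labels number each mouse across its tissues, so the numbers pair tissues of the same animal. Over all region-alleles the consensus correlation of tissues of a mouse was 0.08.

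The region, the comparisons and the lists were chosen with earlier results of these data known. The text names all CpGs by count, and with values the first and the last, the 3 highest, the 3 lowest and any past a threshold. Other regions named are Sox2ot, Prickle1 and the 2 region-alleles most like Klf4. The CpGs 55530449 and 55530521 and the regions named for their share of calls were added after their values were seen. The gene's position is RefSeq's on the same build.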

Additional observations from a re-analysis of the deposited data

Results flagged for a closer look

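Within 1 tissue and age, 3 groups of 4 mice held 1 mouse far from the other 3, of 35 groups tested, where chance gives about 1 in 20. On the paternal allele in young cerebellum, mouse 6 had the lowest Klf4 level, 0.978%, and the next was 1.45%. On the paternal allele in young hippocampus, mouse 6 had the highest, 3.90%, and the next was 0.490%, while its maternal level of 2.17% was also the highest of the young hippocampus. On the paternal allele in young hypothalamus, mouse 7 had the highest, 3.62%, and the next was 1.29%, while its maternal level was 1.52%.

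Genome 1 minus genome 2 was higher in prefrontal cortex than in the mean of the other tissues of the same mouse. The mean gap was 1.39 percentage points, in the same direction in 6 of 6 mice (exact sign-flip p = 0.0313, not adjusted for the choice of tissue). In mouse 7 both values were below 0, at -0.0786 points in prefrontal cortex and -0.135 in the other tissues. The comparison was chosen after the values were seen. Single other tissues had a wider difference than prefrontal cortex in mice 2, 6 and 7. Prefrontal cortex of mouse 5 had no genome 2 level and did not enter. With a minimum of 100 or 200 calls the exact sign-flip p was 0.0625 and 0.250, at 1.65 and 1.51 points. Fewer than 6 mice entered at these minimums, as calls on genome 2 of prefrontal cortex fell short in mouse 7. At 200 calls they fell short in mice 1 and 6 too. The exact test could then not reach 0.0313, so the higher p does not show a weaker difference.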

How the results depend on the processing

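The count of Klf4 tests past adjustment for age, single CpGs included, was 0 under each alternative run. For a brain area against lung it was 0 except on the log odds (4 of 10) and with a trend (2 of 10). With the mouse as a replicate block in limma it was also 0, and the lowest adjusted p was 0.111, for a difference of 1.19 points at maternal Klf4 in nucleus accumbens. The block changed no call.

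Depth limited the finer comparisons. A minimum of 200 calls left 5 of 12 Klf4 age tests. At that minimum the strain difference over tissues was 0.218 points and the difference from Sox2ot -0.607 points, neither past the threshold and each on fewer libraries. Without the prefrontal cortex libraries, an alternative chosen after seeing the data, the strain difference over tissues was 0.268 points and did not pass. With each mouse left out the strain difference over tissues ran from 0.379 to 0.532 points.

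Differences near 0 turned sign, and the cause was not tested. The age difference over tissues was -0.0965 and -0.311 points at 100 and 200 calls, and -0.0749 to 0.213 with a mouse left out. By tissue and allele the age difference turned at 100 calls in hippocampus (maternal, 0.473), and at 100 and 200 calls in hypothalamus (paternal, -0.0640 and -0.0607) and lung (maternal, -0.267 at both). In hippocampus (paternal) it was 0.213 in log odds and 0.138 in log2 fold with edgeR. Without the prefrontal cortex library of mouse 5 it was 0.0441 there (paternal). With a mouse left out it ran in hippocampus from -0.538 to 0.262 (maternal), -0.673 to 0.462 (paternal) and -0.895 to 0.295 (both alleles), in hypothalamus from -0.0640 to 0.867 (paternal), in prefrontal cortex from -0.820 to 0.0441 (paternal), and in nucleus accumbens from -0.161 to 1.11 (maternal), -0.179 to 0.194 (paternal) and -0.229 to 0.330 (both alleles).

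Against lung, cerebellum (paternal) was 0.0479 at 20 calls and ran from -0.218 to 0.196 with a mouse left out. Hippocampus was -0.154 at 200 calls (maternal), -0.0658 in log odds (paternal) and -0.310 to 0.322 with a mouse left out (paternal). Paired by mouse, cerebellum ran from -0.0821 to 0.209 (-0.0412 without mouse 5, -0.0107 without mouse 6) and hippocampus from -0.300 to 0.344. The parental difference was -0.0267 in cerebellum at 200 calls, and -0.0406 in hippocampus and 0.203 in lung at 100 calls. With a mouse left out it ran from -0.138 to 0.376 in hippocampus, -0.269 to 0.129 in lung, -0.980 to 0.0929 in prefrontal cortex and -0.187 to 0.0708 over tissues. The strain difference was 0.299 in nucleus accumbens at 100 calls, and ran from -0.276 to 0.277 there and from -0.331 to 0.0881 in hypothalamus with a mouse left out. The genome shares, the end CpGs and the differences from Prickle1 and the imprinted paternal alleles kept their direction and side of the threshold under each alternative run.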
